A study of Mus musculus with 18 samples.

Results

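The Zfp900-series genes are the mouse zinc finger genes with a symbol from Zfp900 to Zfp999. They were taken by symbol alone, and 55 of the 24505 genes in the expression files bear such a name. The libraries came from E14Tg2a mouse embryonic stem cells, either the wild-type parental line or a Daxx-null line derived from it. Each genotype was grown in 3 cultures, with 3 libraries for each of the 6 groups. In the first culture the cells grew in serum with leukaemia inhibitory factor (LIF) at 1000 units/mL. In the second, called 2i here, they grew with inhibitors of Gsk3 and Mek, LIF and vitamin C at 100 µg/mL, a medium for the ground state of pluripotency. In the third, called retinoic acid here, they spent 24 h without LIF and then 4 days without LIF in 10 µM retinoic acid, toward neural fate. How many Daxx-null clones were used, and which part of Daxx was removed, are facts that the sources used here do not give, so the loss of Daxx and any other difference between both lines cannot be told apart.

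Most genes of this series encode C2H2 zinc finger proteins, many with a KRAB domain. A KRAB zinc finger protein binds DNA through its array of fingers and recruits the corepressor Trim28, which brings the histone H3 lysine 9 methyltransferase Setdb1 and heterochromatin protein 1. Their best-known targets are endogenous retroviruses, which these proteins keep silent in embryonic stem cells. The genes lie in clusters of tandem copies that have expanded quickly in rodents, so neighbours are often near-copies of each other. Daxx is a histone chaperone that works with Atrx to place the histone variant H3.3, also at heterochromatin and retroviral sequences.

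Levels are the authors' FPKM, whose scale, by inference, runs about 10 times above the usual one. Means are given ± SD with n = 3. Differences are on the scale log2(FPKM + 0.5), and adjusted p-values come from one limma fit over all genes. Depth was 84.2 to 141.7 M counting units per library (M, mega). Daxx was at 54.4 to 73.7 FPKM in the 9 Daxx-null libraries and at 238 to 434 in wild type. Summed over 7 pluripotency genes, FPKM was 20303 to 27312 in serum of both genotypes and in wild-type 2i, 8450 to 16500 in Daxx-null 2i and 550 to 918 in retinoic acid. Most of the retinoic acid sum was Sox2, with means of 725 in Daxx-null and 508 in wild-type cells. Each of the other genes of this list was lower in Daxx-null retinoic acid. Pou5f1 was at 3.29 against 35.4, Zfp42 at 10.7 against 37.3 and Klf4 at 19.0 against 44.3. Daxx-null 2i replicate 2 stood apart, with r of 0.932 and 0.940 to its replicates, whereas other replicate pairs reached at least 0.974. Summed FPKM of 3 Y-linked genes was 2.48 ± 0.265 in Daxx-null serum and 1.78 ± 0.722 in Daxx-null retinoic acid, against 205 ± 31.6 in Daxx-null 2i and 160 to 336 as wild-type group means. Differences of the Daxx effect between 2i and serum therefore also span this difference between the Daxx-null cells, whereas Daxx-null serum and retinoic acid libraries were both low in these genes. Since these are bulk libraries, fewer cells that use a gene and less RNA per cell cannot be told apart.

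By mm9 position, 38 of the 55 genes fell into 7 clusters, in which neighbouring members lie at most 2 Mb apart, and the other 17 were solitary. The clusters were on chromosome 4 (10 genes, 145260600 to 147222484), chromosome 17 (10 genes, 21704010 to 23004101), chromosome 2 (8 genes, 175197963 to 177813130) and chromosome 7 (3 genes, 49864896 to 50447479). Smaller ones were on chromosome 8 (3 genes, 71732945 to 72273861), chromosome 13 (2 genes, 62554376 to 62659959) and a second part of chromosome 7 (2 genes, 28692411 to 30638667). The filter on low values kept 51 of the 55. The 4 that failed, Zfp966, Zfp967, Zfp973 and Zfp965, all lie in the chromosome 2 cluster and averaged under 1 FPKM in every group. Zfp966 and Zfp967 share coordinates and identical values, and Zfp973 and Zfp965 overlap, so neither pair can be separated.

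The median group mean of the members was 27.4 FPKM in wild-type serum, 31.0 in wild-type 2i and 25.5 in wild-type retinoic acid, against 37.4, 36.1 and 41.4 for other tested genes. In wild-type serum 7 members averaged at least 100 FPKM, in wild-type 2i 14 did, and in wild-type retinoic acid 1 did. Zfp979 had the highest mean in wild-type serum (299 FPKM), and Zfp961 in each of the other 5 groups, up to 647 in wild-type 2i. The heat map of all 55 genes shows the chromosome 4 block changing widely with culture, whereas Zfp933 and the chromosome 17 block change less. Group means of summed FPKM ran from 122 to 2097 for chromosome 4 and from 180 to 339 for chromosome 17.

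**Figure D1:**
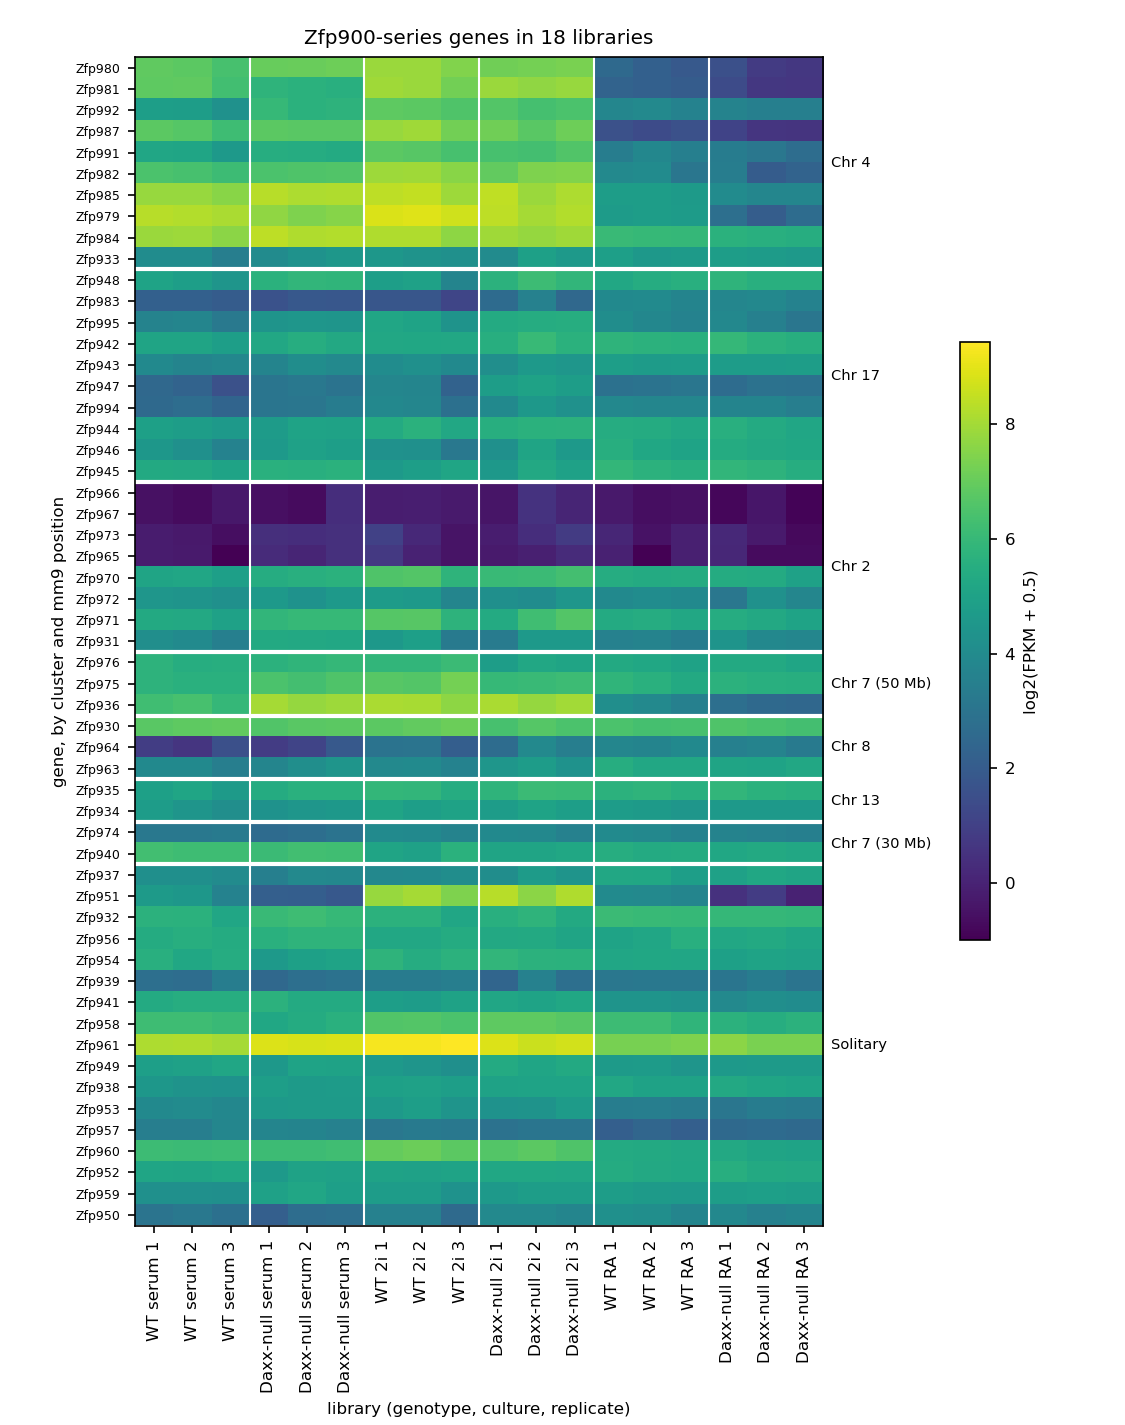
Expression of the 55 Zfp900-series genes (rows, by cluster and mm9 position) in the 18 libraries (columns), with colour giving log2(FPKM + 0.5). The chromosome 4 block is bright in serum and 2i and dark in retinoic acid, apart from Zfp933 at its lower edge, and the top 4 rows of the chromosome 2 block, under 1 FPKM on average, are dark in every group.

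Chromosome 4 held the strongest response to retinoic acid. In wild-type cells 9 of its 10 members fell and Zfp933 rose, with the same counts under each scaling tried. Summed over the 10, FPKM was 1188 ± 142 in serum, 2097 ± 345 in 2i and, after retinoic acid, 191 ± 10.7. Over all tested members, 19 were higher and 19 lower in retinoic acid than in serum (37.3% each), where 30.4% of all genes were higher and 34.1% lower. In 2i, 28 members were higher and 3 lower than in serum (54.9% and 5.88%), against 24.7% and 24.8% of all genes, and 8 of the 28 were on chromosome 4.

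Promoters of the chromosome 4 genes are shown because the members that fell together carry similar ones. RefSeq windows of 300 bases on GRCm38.p6, from 250 bases before to 50 after the annotated start, were found for 50 of the 55 genes. Those of Zfp991, Zfp992, Zfp930, Zfp934 and Zfp960 were not matched. The longest run common to all 7 matched chromosome 4 members that fell in retinoic acid is 15 bases, printed in capitals below. Zfp982 has 3 annotated windows, and the run is in 1 of them. It was looked for after the fall was known. It is present in 12 of the 32851 windows of all genes (0.0365%), searched on both strands. The other 5 holders are Gm13212, Rex2, Zfp534, Zfp600 and Zfp988, all on chromosome 4. It begins 141 bases before the start of Zfp979 and Zfp980, 151 before that of Zfp987 and 136 before that of Zfp985. The window of Zfp933, the member that rose, does not hold it and is printed last. The 5 windows lie at chr4:147642459-147642758 (minus strand), chr4:145670447-145670746 (plus), chr4:146097062-146097361 (plus), chr4:147553027-147553326 (plus) and chr4:147848369-147848668 (minus).
Zfp979: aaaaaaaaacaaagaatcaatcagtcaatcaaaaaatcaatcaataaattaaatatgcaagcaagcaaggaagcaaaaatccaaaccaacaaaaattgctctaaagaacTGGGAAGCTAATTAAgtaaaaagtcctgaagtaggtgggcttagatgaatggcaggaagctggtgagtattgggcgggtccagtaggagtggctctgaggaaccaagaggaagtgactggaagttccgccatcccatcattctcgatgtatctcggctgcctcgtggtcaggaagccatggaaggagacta
Zfp980: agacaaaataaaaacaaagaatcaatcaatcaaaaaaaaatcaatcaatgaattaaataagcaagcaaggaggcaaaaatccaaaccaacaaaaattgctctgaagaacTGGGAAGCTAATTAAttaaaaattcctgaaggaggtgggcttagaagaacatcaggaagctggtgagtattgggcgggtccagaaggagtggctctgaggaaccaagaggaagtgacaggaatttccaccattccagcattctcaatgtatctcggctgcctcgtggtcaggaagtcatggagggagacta
Zfp987: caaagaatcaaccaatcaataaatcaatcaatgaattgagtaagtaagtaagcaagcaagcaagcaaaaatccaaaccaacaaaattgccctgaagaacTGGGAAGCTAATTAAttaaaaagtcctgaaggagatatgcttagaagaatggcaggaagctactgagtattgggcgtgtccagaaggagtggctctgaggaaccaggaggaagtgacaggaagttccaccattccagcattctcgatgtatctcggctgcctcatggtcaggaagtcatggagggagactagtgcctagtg
Zfp985: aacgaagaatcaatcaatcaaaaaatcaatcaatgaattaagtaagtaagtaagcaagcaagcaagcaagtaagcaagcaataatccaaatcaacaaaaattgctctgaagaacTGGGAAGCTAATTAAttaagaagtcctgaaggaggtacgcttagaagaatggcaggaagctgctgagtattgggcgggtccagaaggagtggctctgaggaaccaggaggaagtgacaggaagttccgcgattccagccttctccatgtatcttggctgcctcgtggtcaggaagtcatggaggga
Zfp933: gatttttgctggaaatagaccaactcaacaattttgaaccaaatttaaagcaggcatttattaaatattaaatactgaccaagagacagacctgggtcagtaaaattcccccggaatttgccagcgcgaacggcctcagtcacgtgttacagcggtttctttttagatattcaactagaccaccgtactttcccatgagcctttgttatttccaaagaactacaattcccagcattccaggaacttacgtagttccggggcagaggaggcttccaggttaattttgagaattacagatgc

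Among the 7 holders, pairwise identity of the windows had a median of 79.6% (21 pairs, 68.6 to 89.8%). Zfp933 was 49.6 to 52.2% identical to them, near the median of 50.4% for members in different clusters or none. The shared run is a description of these windows, and its part in expression was not tested. The transcripts are also copies in part. For Zfp987, 77.3% of 100-base stretches of the GENCODE M21 transcript also occur in another gene, for Zfp991 73.8%, for Zfp980 45.6%, and for Zfp985 1.92%. The sources used here do not say how reads were shared among such copies, so values of Zfp987, Zfp991 and Zfp980 are uncertain. This holds in part for Zfp984 (29.9%), Zfp992 (28.6%), Zfp979 (15.9%) and Zfp981 (13.1%) too. At 50 bases their shares were 54.6%, 43.0%, 23.6% and 40.9%. Zfp985 and Zfp982 (0%) share less, although at 50 bases 16.2% and 5.6% of their stretches also occur in another gene.

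**Figure D2:**
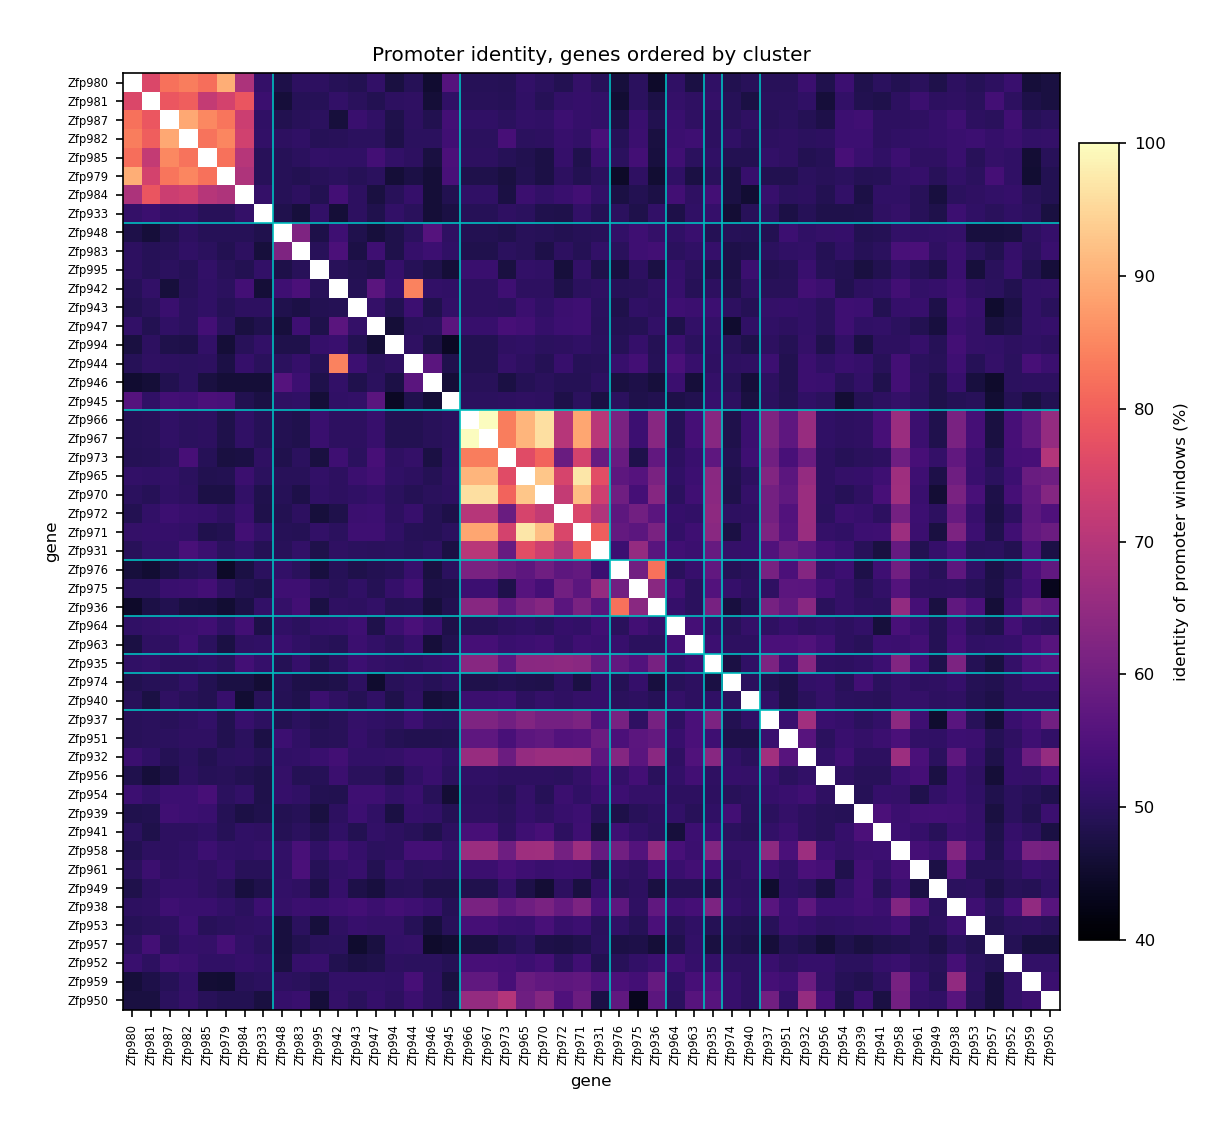
Pairwise identity (%) of the 300-base promoter windows of the 50 matched genes, ordered by cluster, with cyan lines between clusters and the diagonal left white. Blocks of high identity appear on chromosome 4 without Zfp933 and on chromosome 2, while most chromosome 17 pairs lie near the median of all 1225 pairs, 50.6%.

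Zfp987 (NM_001037926, 146064713 to 146094024, plus strand) was at 110, 102 and 72.5 FPKM in wild-type serum and at 2.49, 2.15 and 2.49 in wild-type retinoic acid. This was the largest fall among the members (log2 -5.03, SE 0.209, adjusted p = 1.4e-11). Zfp980 (145260600 to 145294340, plus strand) went from 119, 111 and 84.5 FPKM to 5.44, 4.13 and 3.27 (-4.47). Zfp981 (145658644 to 145683119, minus strand) went from 113, 117 and 76.9 to 4.55, 4.05 and 3.62 (-4.47). Zfp979 (NM_145078, 146986045 to 147016617, minus strand), the most abundant gene of the cluster, went from 314, 303 and 279 to 25.7, 27.2 and 26.3 (-3.48). Zfp985, whose transcript shares less with other genes, went from 224, 223 and 190 to 27.2, 27.5 and 24.97 (-2.97). No library of one culture reached the other in any of these 5 genes. Smaller falls were those of Zfp982 (-2.66), Zfp984 (-1.79), Zfp991 (-1.37) and Zfp992 (-0.87). Zfp933, at the distal end, rose from 14.4 ± 3.31 to 25.9 ± 2.9 FPKM (0.85, adjusted p = 0.003).

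Other genes between the members moved with them. Of 8 tested non-members inside the span, 6 were lower in wild-type retinoic acid and 1 higher. Zfp600 went from 47.4 ± 10.5 to 1.55 ± 0.172 FPKM (-4.52) and Zfp534 from 150 ± 35.6 to 12.1 ± 1.59 (-3.55), whereas Gm13034 was at 150 ± 9.47 and 147 ± 9.19 (-0.03, adjusted p = 0.91). Zfp600 and Zfp534 are among the genes that hold the 15-base run, as is Rex2 (-2.80). The others that were lower are not among its holders, though some may lack an annotated window. They were Znf41-ps (mean FPKM 34.0 in serum, 10.0 in retinoic acid), Gm13238 (4.1 and 0.99) and 1700095A21Rik (1.27 and 0.052). In the same comparison the pluripotency sum was 22258 to 22547 FPKM in wild-type serum and 589 to 685 in wild-type retinoic acid, and the neural sum of 7 genes 539 to 623 and 794 to 995. None of either list was at 0 in any group. Within the neural list Tubb3 fell from a mean of 449 to 298, whereas the others rose, Pax6 from 11.4 to 196. Other lists also rose in wild type. The trophoblast sum was 75.8 to 173 FPKM in serum and 890 to 1065 in retinoic acid. For primitive endoderm genes it was 52.4 to 68.4 and 483 to 855, and for fibroblast genes 60.4 to 99.8 and 229 to 345. The part of these lists in the fall was not tested.

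In 2i the cluster stood above serum in wild type. Zfp992 (145728599 to 145749009, minus strand) reached 113, 110 and 94.7 FPKM against 28.3, 27.4 and 18.9 (2.09, adjusted p = 3.4e-08), and Zfp991 reached 99.7 ± 14.7 against 31.3 ± 6.63 (1.67). The others that rose lay between 0.52 (Zfp985) and 1.46 (Zfp982), and Zfp984 (0.22, adjusted p = 0.15) and Zfp933 (0.51, adjusted p = 0.065) did not pass.

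Daxx-null cells differed from wild type on chromosome 4 in a culture-dependent way. In retinoic acid 4 of the 10 were lower and none higher, where 2.27% of all genes were lower, and the cluster sum was 122 ± 13.3 against 191 ± 10.7 FPKM. The deepest was Zfp979, at 6.46, 3.71 and 5.95 FPKM against 25.7, 27.2 and 26.3 (-2.23, SE 0.151, adjusted p = 1.3e-07). Zfp985 was at 15.7, 13.2 and 13.4 against 27.2, 27.5 and 24.97 (-0.89, adjusted p = 0.0027). Both genes had groups that did not overlap. Zfp981 was at 1.43 ± 0.602 against 4.07 ± 0.462 (-1.29) and Zfp980 at 1.59 ± 0.699 against 4.28 ± 1.09 (-1.21). These last 2 calls ended under quantile normalization (adjusted p = 0.055 and 0.067), in the authors' deposited table (0.087 and 0.089) and with only the groups compared in the fit (0.071 and 0.11).

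In all 3 cultures Zfp979 was lower in Daxx-null cells, and it was the only member called in all 3. In serum it was at 207, 172 and 185 FPKM against 314, 303 and 279 (-0.67, adjusted p = 0.0038), and in 2i at 337, 263 and 303 against 454, 488 and 408 (-0.58, adjusted p = 0.0052). Its neighbours went several ways in serum. Zfp981 was at 54.5, 50.7 and 47.1 against 113, 117 and 76.9 (-0.98, adjusted p = 0.0038), whereas Zfp992 was at 62.3, 50.7 and 52.7 against 28.3, 27.4 and 18.9 (1.15, adjusted p = 7.4e-05). Zfp985 (0.50) and Zfp984 (0.48) were also higher. In 2i Zfp987 was at 129 ± 19.3 against 208 ± 53.6 FPKM (-0.66, adjusted p = 0.017), a call lost with only the 2i groups in the fit (adjusted p = 0.079).

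**Figure D3:**
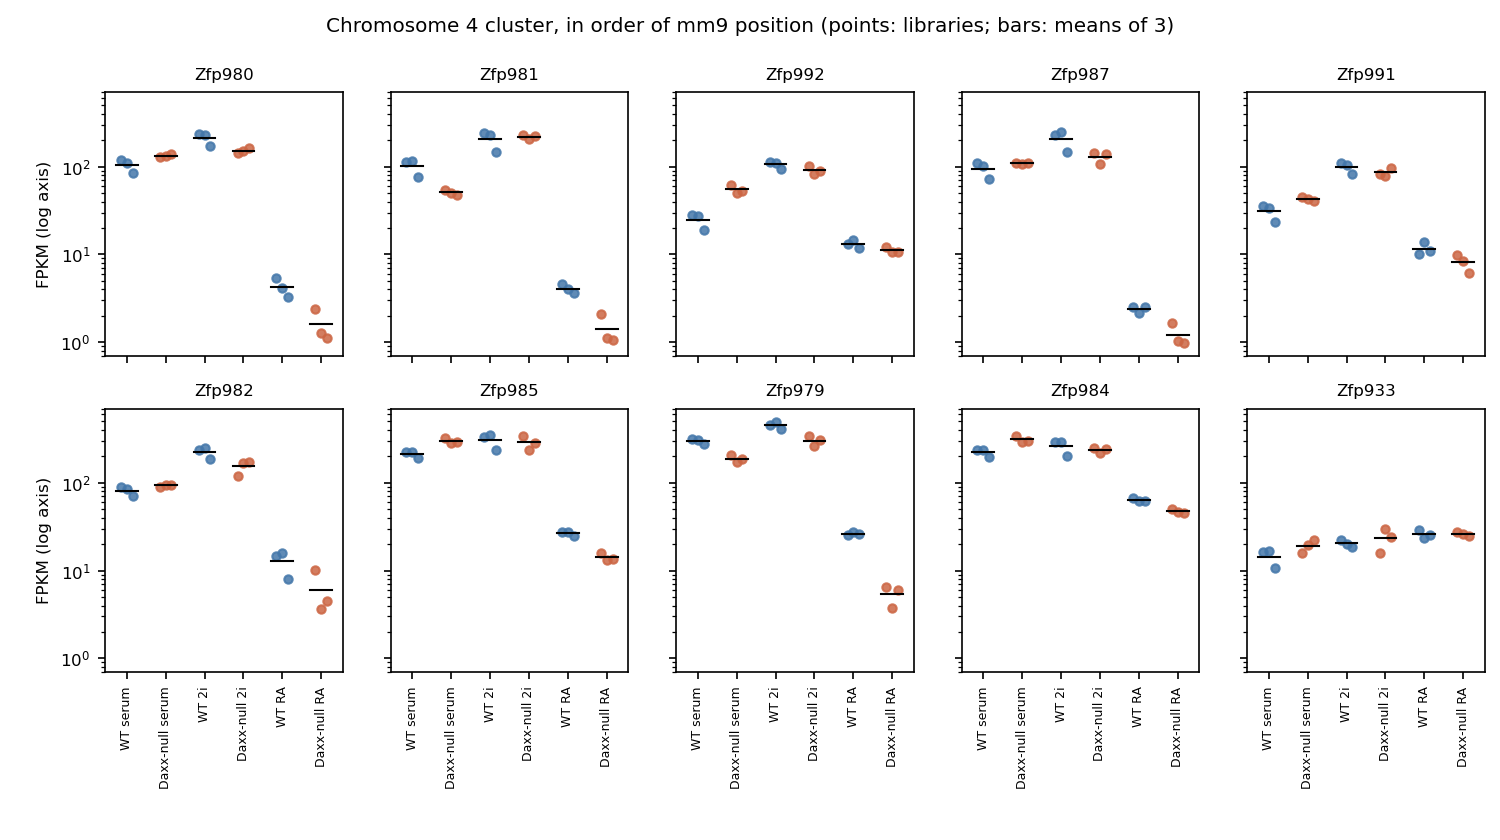
FPKM (log axis) of the 10 chromosome 4 members in each library, with wild type in blue, Daxx-null in orange and bars at the means of 3. In 9 panels the points drop in retinoic acid and in that of Zfp933 they do not, and the Daxx-null retinoic acid points of Zfp979, 3.71 to 6.46, lie below all wild-type points.

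In the first chromosome 7 cluster, Zfp976, Zfp975 and Zfp936 lie within 0.583 Mb. Promoter windows of Zfp936 and Zfp976 are 82.4% identical, the highest pair of this cluster, and are printed to show 2 similar promoters whose genes gave different calls. They lie at chr7:43177340-43177639 (plus strand) and chr7:42642555-42642854 (minus strand) on GRCm38.p6.
Zfp936: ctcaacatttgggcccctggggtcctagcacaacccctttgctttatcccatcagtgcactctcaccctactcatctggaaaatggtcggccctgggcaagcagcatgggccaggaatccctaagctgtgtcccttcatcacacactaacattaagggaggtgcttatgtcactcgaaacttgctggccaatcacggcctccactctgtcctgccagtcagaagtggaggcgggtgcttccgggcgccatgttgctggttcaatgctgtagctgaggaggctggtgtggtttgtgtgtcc
Zfp976: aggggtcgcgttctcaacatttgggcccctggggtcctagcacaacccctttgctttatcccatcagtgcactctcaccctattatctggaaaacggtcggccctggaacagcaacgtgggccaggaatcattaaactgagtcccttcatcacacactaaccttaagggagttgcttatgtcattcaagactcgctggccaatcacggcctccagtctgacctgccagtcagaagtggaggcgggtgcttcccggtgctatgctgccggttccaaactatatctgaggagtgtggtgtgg

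Zfp936 (NM_001034893, mm9 50432958 to 50447479, plus strand) moved most. In serum it was at 260, 222 and 240 FPKM in Daxx-null and 75.6, 84.8 and 61.4 in wild-type cells (1.71, SE 0.166, adjusted p = 3.9e-06). In 2i the values were 274, 217 and 256 against 273, 269 and 201 (0.01, 95% interval -0.34 to 0.37). In retinoic acid they were 6.42, 5.40 and 5.14 against 17.1, 14.5 and 11.2 (-1.25, adjusted p = 0.00034, and 0.052 with only the groups compared in the fit). The Daxx effect was thus positive in serum and negative in retinoic acid, with no overlap of the genotypes in either. Its difference between retinoic acid and serum was -2.95 (SE 0.234, adjusted p = 7.4e-06) and between 2i and serum -1.69 (adjusted p = 5.8e-05). Wild-type Zfp936 itself rose in 2i (1.74) and fell in retinoic acid (-2.34).

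Zfp976 (49864896 to 49897974, minus strand) passed the test for Daxx in 2i. There it was at 27.8, 37.9 and 34.0 FPKM in Daxx-null and 57.9, 57.1 and 69.4 in wild-type cells (-0.88, adjusted p = 8.8e-05), and in serum at 56.3 ± 4.35 and 47.9 ± 4.03 (0.23, adjusted p = 0.21). Zfp975 (49915478 to 49948088, minus strand) changed in opposite directions. It was at 88.7, 79.7 and 94.7 against 52.7, 48.2 and 49.3 in serum (0.80, adjusted p = 0.00097) and at 62.6, 66.6 and 71.3 against 104, 100 and 153 in 2i (-0.80, adjusted p = 0.00044). Its effect differed between those cultures by -1.61 (SE 0.21, adjusted p = 3.6e-05). Of 100-base transcript stretches, 15.55% for Zfp975 and 10.1% for Zfp976 also occur in another gene. At 50 bases the shares were 40.7% and 27.3%. Each has the other as the gene that shares most, so values of Zfp975 and Zfp976 are in part uncertain. Of 4 non-members inside the span of this cluster 1 was tested, Gm2381. It was at 2.36 ± 1.46 in Daxx-null against 7.0 ± 0.755 FPKM in wild-type retinoic acid.

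Over the whole series, serum was the culture in which most members were called for Daxx. There 17 rose and 5 fell in the Daxx-null line (33.3% and 9.80%), against 9.29% and 18.9% of all genes, and the median difference was 0.29 against -0.12. Other numbered Zfp genes gave 66 higher and 25 lower of 293 tested. Under quantile normalization, which moves the median of all genes to 0, the members split 27 to 4 and all 17 remained called. All 18002 tested genes then split 2172 to 2120. Wild-type serum replicate 3 was low for many members, and without it 9 were higher. In 2i, 8 members were higher and 7 lower (15.7% and 13.7%), against 31.5% and 15.3% of all genes. The median 2i difference of non-members was 0.70 on chromosome 1, 0.69 on chromosome 14 and 0.44 on X. On the other autosomes it lay between -0.16 and 0.32. No member lies on chromosome 1 or X, and of the members only Zfp957 lies on chromosome 14. The part of this in the shares was not tested. Quantile normalization moved the median of all genes from 0.20 to -0.03 and the member split to 4 higher and 15 lower. The split of all 18002 tested genes moved from 5671 higher and 2760 lower to 3722 and 4205. In retinoic acid 6 were lower (11.8%) and none higher, against 2.27% and 0.222% of all genes. Markers of other cell types also differed between the genotypes. All 5 primitive endoderm genes were measured, and their sum was 8.97 to 11.5 FPKM in Daxx-null and 52.4 to 68.4 in wild-type serum (Afp at 0 in wild type), 223 to 320 and 37.8 to 90.3 in 2i, and 274 to 339 and 483 to 855 in retinoic acid. The sum of 5 trophoblast genes, none at 0, was 569 to 760 FPKM in Daxx-null 2i and 61.9 to 156 in wild-type 2i. Of 7 two-cell genes Tcstv1 and Tcstv3 were at 0 throughout, and the sum was 5.61 to 7.01 in Daxx-null and 41.7 to 58.9 in wild-type retinoic acid. In 2i it went the other way, at 68.9 to 129 in Daxx-null and 13.6 to 39.1 in wild type. In serum the genotypes overlapped in this sum. The sum of 5 retinoic acid response genes was 1879 to 2489 FPKM in Daxx-null and 985 to 1223 in wild-type 2i, and 1609 to 1879 and 2256 to 2706 in retinoic acid. In 2i the neural sum was 255, 277 and 1841 in Daxx-null and 521 to 656 in wild-type libraries, and the sum of 5 fibroblast genes 72.4, 73.5 and 374 against 69.8 to 121, so 1 Daxx-null value stood high in each. Fibroblast genes summed to 27.0 to 33.7 in Daxx-null and 60.4 to 99.8 in wild-type serum. The part of these in the members' differences was not tested. In all, 33 of 51 members were called in at least 1 culture (64.7%), 9 in at least 2 (17.6%), and 4 of these 9 in opposite directions (7.84% of 51), namely Zfp936, Zfp961, Zfp975 and Zfp985. The shares of all genes were close to these, at 61.6%, 15.3% and 8.42%.

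**Figure D4:**
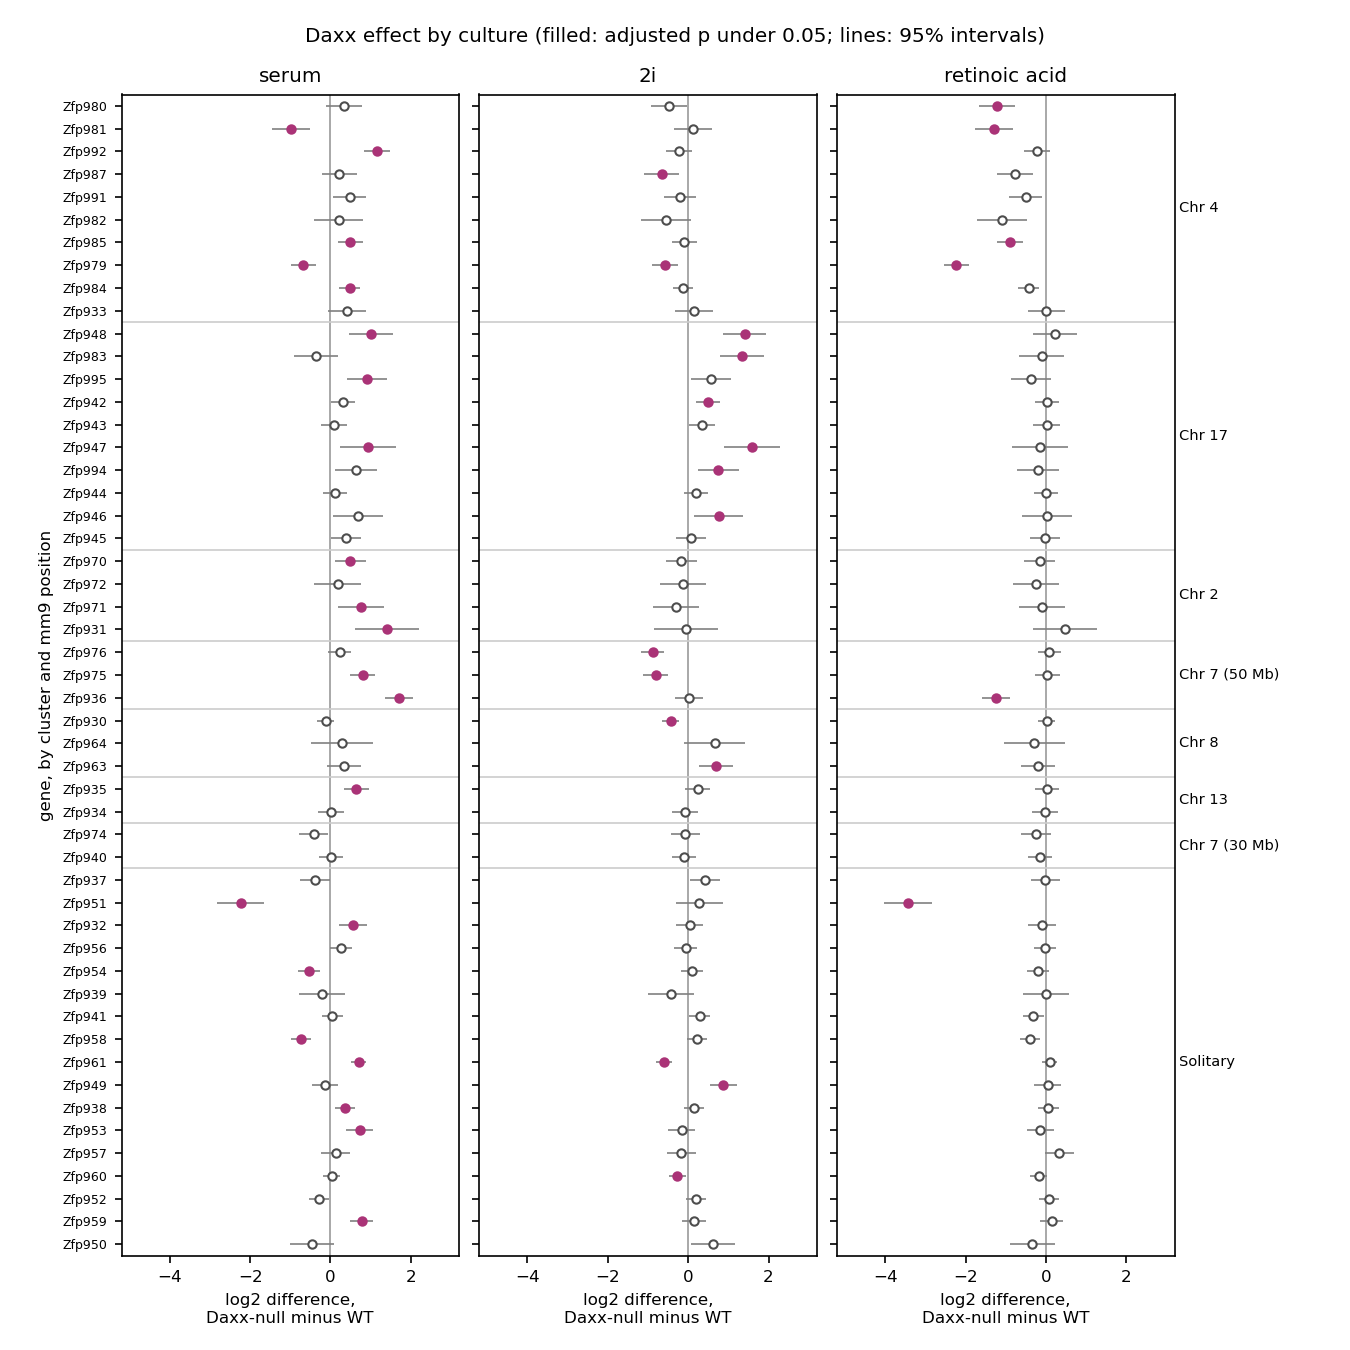
Difference between Daxx-null and wild type on the log2 scale (horizontal axis) for the 51 tested genes (rows) in serum, 2i and retinoic acid, with 95% intervals and filled points at an adjusted p under 0.05. Chromosome 17 lies right of 0 in 2i, and in retinoic acid filled points occur on chromosome 4, at Zfp936 and at Zfp951, all left of 0.

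Chromosome 17 behaved otherwise than chromosome 4. In wild-type retinoic acid 9 of its 10 members were higher than in serum and none lower, against 30.4% and 34.1% of all genes. Of other numbered Zfp genes, 50.5% were higher and 18.4% lower. The summed FPKM of the chromosome 17 members went from 180 ± 24.6 to 302 ± 18.8. Zfp983 (21787578 to 21801933, plus strand) rose from 4.03, 4.03 and 3.66 to 15.0, 15.4 and 12.4 FPKM (1.74, adjusted p = 2.5e-05). Zfp994 rose from 5.40 ± 0.693 to 13.6 ± 0.504 (1.27) and Zfp946 from 17.6 ± 5.35 to 38.5 ± 6.78 (1.15). Zfp942, the most abundant on average, rose from 32.1 ± 3.16 to 51.5 ± 2.8 (0.68). Its promoter window overlaps that of Zfp943 by 194 bases, head to head, and Zfp943 rose from 13.7 ± 1.16 to 26.7 ± 1.17 (0.94).

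In Daxx-null 2i cells 6 of the 10 were higher and none lower, against 31.5% and 15.3% of all genes. All 10 estimates were above 0, with a median of 0.67 where that of all genes was 0.20. Zfp947 (22281326 to 22302944, minus strand) was at 27.4, 31.6 and 27.2 FPKM against 13.5, 12.9 and 4.37 (1.59, adjusted p = 0.0011). Zfp948 (21704010 to 21725649, plus strand) was at 52.0, 70.7 and 58.3 against 28.5, 30.8 and 12.5 (1.41, adjusted p = 0.00038). Zfp983 was at 5.78, 11.5 and 5.31 against 2.93, 2.97 and 1.75 (1.34, adjusted p = 0.00067). In each of the 3, wild-type replicate 3 was lowest, although the genotypes did not overlap. Zfp994 (0.75), Zfp946 (0.76) and Zfp942 (0.50) were the others called. Without wild-type replicate 3 and Daxx-null replicate 2, and likewise under quantile normalization, 3 of the 10 were called, and 2 with only the 2i groups in the fit. Under quantile normalization 7 of the 10 estimates were above 0.

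In serum 3 were higher in Daxx-null cells, Zfp948 (54.6 ± 4.09 against 27.2 ± 5.55 FPKM, 1.01), Zfp947 (7.92 ± 0.534 against 4.08 ± 1.44, 0.93) and Zfp995 (21.2 ± 0.776 against 11.3 ± 2.3, 0.90). Under quantile normalization 8 were, as were 2172 of all 18002 tested genes. The Zfp947 call had an adjusted p of 0.046 and reached 0.20 when 1 library was left out. None was called in retinoic acid, where estimates ran from -0.37 to 0.23.

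Chromosome 2 members that passed the filter on low values were Zfp970, Zfp972, Zfp971 and Zfp931. Their promoter windows and those of the 4 members under 1 FPKM had a median identity of 78.2% (28 pairs). Of 100-base transcript stretches, 100% for Zfp965 and Zfp967, 78.7% for Zfp966 and 74.9% for Zfp973 also occur in another gene, so low values of these 4 are uncertain. In Daxx-null serum 3 of the 4 that passed the filter were higher, against 9.29% of all genes. Zfp931 (177801583 to 177813130, minus strand) was at 39.9, 38.8 and 37.7 FPKM against 17.3, 15.51 and 10.9 (1.41, SE 0.375, adjusted p = 0.011, and 0.054 without wild-type replicate 3). Zfp971 was at 61.3 ± 3.11 against 36.3 ± 4.97 (0.76, adjusted p = 0.048) and Zfp970 at 46.6 ± 3.31 against 32.9 ± 3.22 (0.50, adjusted p = 0.049). The 2 last calls were close to the threshold, and that of Zfp971 was lost in 6 of the fits that left out 1 library. In wild-type 2i Zfp970 (82.2 ± 23.4) and Zfp971 (87.1 ± 29.2) were higher than in serum (1.27 and 1.20), with replicate 3 low in both at 55.3 and 53.5.

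On chromosome 8, Zfp964 (72178455 to 72188352, plus strand) had the largest rise among the members in wild-type retinoic acid, from 1.37, 1.01 and 2.42 to 13.3, 12.4 and 14.8 FPKM (2.79, adjusted p = 4.7e-06). It also rose in 2i, to 7.25, 7.47 and 3.81 (1.67, adjusted p = 0.0011). Zfp963 went from 13.5 ± 2.59 to 40.04 ± 4.18 in retinoic acid (1.54), with 38.0% of its 100-base stretches shared with another gene. Zfp930, the most abundant of the 3, was lower in Daxx-null 2i at 90.9 ± 9.25 against 123 ± 12 FPKM (-0.44, adjusted p = 0.0021, and 0.053 with only the 2i groups in the fit). On chromosome 13 Zfp935 was at 42.5, 48.9 and 49.2 against 29.96, 34.6 and 25.4 in Daxx-null and wild-type serum (0.64, adjusted p = 0.0037). Its neighbour Zfp934 was at 21.6 ± 1.97 against 21.8 ± 4.79. In the second chromosome 7 group Zfp940 fell from 73.5 ± 2.27 in serum to 38.4 ± 10.5 in wild-type 2i (-0.96) and showed no called Daxx effect.

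Of the solitary genes, Zfp951 (NM_001039231, chromosome 5, 105242187 to 105289087, minus strand) varied most. Serum FPKM was 25.1, 22.6 and 11.9 in wild type but 3.99, 3.88 and 3.13 in Daxx-null libraries. For 2i the wild-type libraries gave 227, 260 and 172 and the Daxx-null ones 319, 198 and 289. After retinoic acid these were 15.4, 14.6 and 12.9 for wild type but 0.899, 1.33 and 0.498 for Daxx-null. The genotypes did not overlap in serum or retinoic acid, and they did in 2i. The Daxx effect was -2.23 in serum (SE 0.278, adjusted p = 4.2e-05), -3.43 in retinoic acid (adjusted p = 1.2e-06) and 0.28 in 2i (95% interval -0.31 to 0.87). Daxx-null retinoic acid cells held 0.0636 of the wild-type mean. The effect in 2i differed from that in serum by 2.51 (SE 0.393, adjusted p = 0.00015), whereas the difference between retinoic acid and serum, -1.20, did not pass (adjusted p = 0.072). Wild-type 2i cells held 11.1 times the serum mean (3.48), the largest among the members. None of its 100-base stretches and 1.2% of its 50-base stretches occur in another gene.

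Zfp961 (chromosome 8, 74474965 to 74494232, plus strand), with no 50-base stretch in another gene, changed in opposite directions. It was at 468, 439 and 456 FPKM against 281, 292 and 263 in serum (0.71, adjusted p = 4.9e-05) and at 467, 392 and 420 against 618, 632 and 690 in 2i (-0.60, adjusted p = 7.7e-05). In retinoic acid it was at 173 ± 20.5 against 161 ± 9.29 (0.10, 95% interval -0.09 to 0.28). Zfp958 (42.5 ± 6.4 against 70.8 ± 3.06 FPKM, -0.74) and Zfp954 (28.9 ± 3.89 against 42.2 ± 5.18, -0.54) were lower in Daxx-null serum. The Zfp954 call ended under quantile normalization (adjusted p = 0.071). Zfp949 was higher in Daxx-null 2i, at 41.3, 34.6 and 39.5 against 24.1, 20.9 and 17.6 (0.87, adjusted p = 0.00033), and lower in wild-type 2i than in serum (-0.60). Zfp941 fell in wild type in both 2i (-0.59) and retinoic acid (-1.10). Zfp932, known to repress a class of endogenous retroviruses, was at 66.7, 72.1 and 62.3 against 51.5, 50.7 and 35.4 in Daxx-null and wild-type serum (0.56, adjusted p = 0.018), with 26.9% of its stretches shared with another gene.

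**Figure D5:**
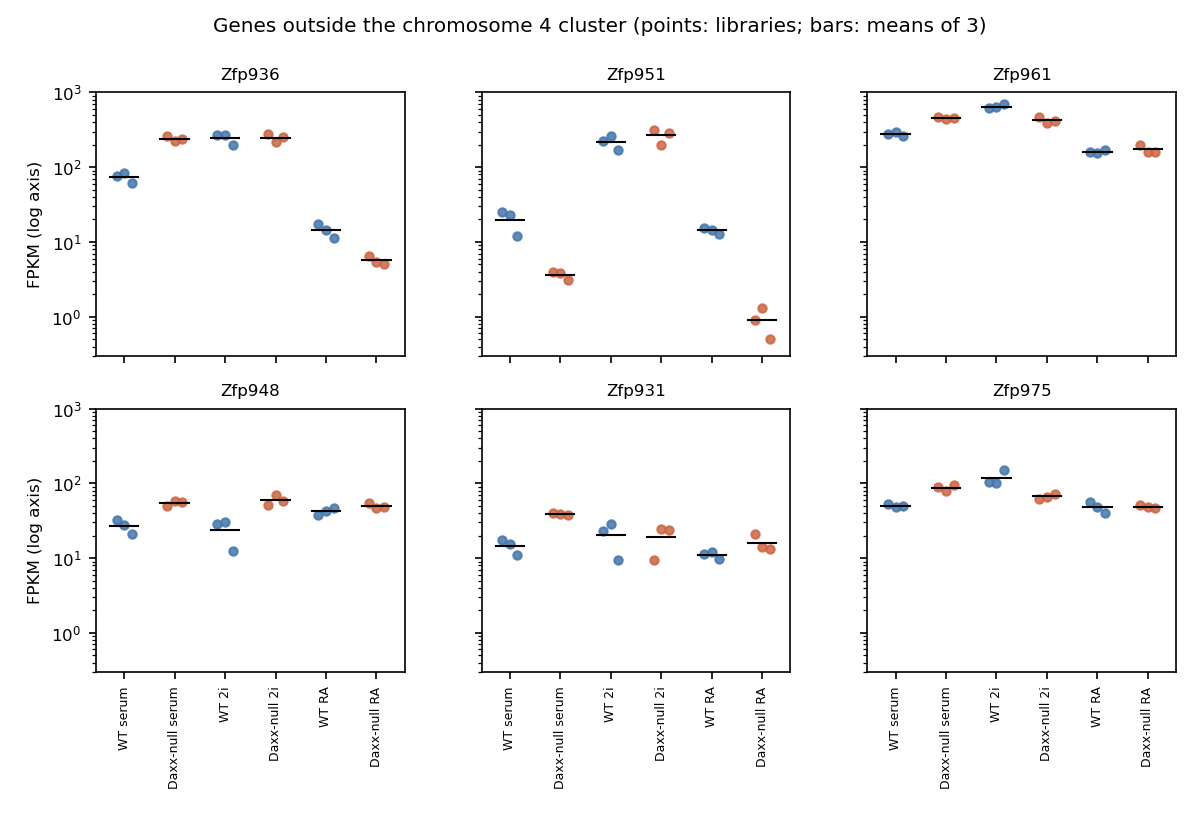
FPKM (log axis) of 6 genes outside the chromosome 4 cluster in each library, with wild type in blue, Daxx-null in orange and bars at the means of 3. Daxx-null Zfp936 is higher in serum and lower in retinoic acid, Zfp951 is lowered in serum and retinoic acid but not in 2i, and Zfp961 and Zfp975 switch order between serum and 2i.

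Direct tests of the Daxx effect between cultures called 9 members higher and 14 lower in 2i than in serum (17.6% and 27.5%), against 31.5% and 11.5% of all genes. Under quantile normalization 3 members were higher and 31 lower, where 3054 of all 18002 tested genes were higher and 3441 lower. For retinoic acid against serum 11 were lower (21.6%) and none higher, against 3.38% and 4.82% of all genes, and 6 of the 11 were on chromosome 4. The estimates of all 10 chromosome 4 members lay below 0, from -1.56 (Zfp980, Zfp979) to -0.30 (Zfp981). Each of these comparisons shares its serum libraries with the serum comparison itself.

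Genes of the silencing machinery that KRAB zinc finger proteins use, or that act beside it, were also measured, 30 in all. The list includes Atrx, Hira, the H3.3 genes H3f3a and H3f3b, and the zinc finger genes Zfp57 and Zfp809. It also includes Daxx itself, whose lower RNA comes with the genotype, so counts of lower genes are in part set in advance. In Daxx-null serum 11 were higher (36.7%) and 1, Daxx itself, lower (3.33%), against 9.29% and 18.9% of all genes. Atf7ip2 was at 52.4 ± 1.6 against 22.4 ± 2.67 FPKM (1.22, adjusted p = 0.00082). Atf7ip, which stabilises Setdb1, was at 305 ± 5.95 against 181 ± 32.1 (0.77). Trim28 was at 5861 ± 532 against 4167 ± 148 (0.49, adjusted p = 0.02). In Daxx-null 2i 6 of the 30 were higher and 9 lower, against 31.5% and 15.3% of all genes. Daxx was there at 56.0 ± 1.58 FPKM against 420 ± 16.5. The remodeller Smarcad1 was at 184 ± 9.19 against 309 ± 7.74 (-0.74), and the heterochromatin protein gene Cbx1 at 213 ± 24.9 against 351 ± 28.4 (-0.72). In retinoic acid, where 0.222% of all genes were higher and 2.27% lower, 1 was higher (Uhrf1, 0.40) and 2 lower, Daxx and Zfp809 (41.5 ± 5.59 against 63.7 ± 6.19, -0.62), a zinc finger protein that binds retroviral primer sites.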

How the data were processed

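RNA-seq was analysed from 18 libraries, 3 per group. The authors deposited FPKM per gene and library with mm9 positions. The submitters' processing notes name HOMER 4.8, Bowtie2 2.2.6 and limma. Strand and the FPKM scale are not given in the sources used here. Values of low genes are whole multiples (tolerance 0.1) of 1 counting unit, from which depth was taken on an inferred total of 10 M, which puts values about 10 times above the usual FPKM scale. Precision rests on 3 libraries per group, and a low gene on few units (Zfp951 had 20 in its lowest library). The authors also deposited a table of log2 values after quantile normalization, used as an alternative. Repeat files were not used here.

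limma 3.58.1 in R 4.3.3 was fitted to log2(FPKM + 0.5) with a variance trend, 6 group means and all 18 libraries, for the 18002 genes that reached an FPKM of 1 in 3 or more libraries. The pseudocount understates changes of low genes. Calls are at a Benjamini-Hochberg adjusted p under 0.05 over all genes. There were 7 contrasts, namely Daxx-null minus wild type per culture, each of 2i and retinoic acid minus wild-type serum, and the Daxx effect in each of those 2 minus that in serum. The fit was tested on simulated data. The labels do not say how replicates were separated in culture, so the p-values reflect the spread among these libraries, which may be technical.

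Members, lists and tests were chosen with earlier results of these data known. Genes named were, per contrast, up to 5 per direction by size among called members whose groups did not overlap and whose higher mean was at least 2 FPKM. For differences between cultures up to 3 per direction were named, and further the most abundant member of each cluster, members called in all 3 cultures, and up to 3 machinery genes per Daxx contrast. Others complete a cluster or a count and were picked after their values were seen. Of 31 machinery genes 30 matched by symbol. Promoters are RefSeq on GRCm38.p6, transcripts GENCODE M21; promoter identity comes from global alignment with Biopython 1.88. Alternatives changed the pseudocount, filter, scaling, samples in the fit, a replicate block and each library in turn.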

Additional observations from a re-analysis of the deposited data

Results flagged for a closer look

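The Daxx effect differed between cultures, by a direct test in limma, for the members below, and each value is the effect in the named culture minus that in serum on the log2 scale. In 2i it was higher for Zfp951 (2.51, SE 0.393), Zfp983 (1.70, SE 0.37, adjusted p = 0.0019) and Zfp981 (1.10, SE 0.312, adjusted p = 0.01). It was lower in 2i for Zfp936 (-1.69), Zfp975 (-1.61) and Zfp931 (-1.46, SE 0.53, adjusted p = 0.036). In retinoic acid it was lower for Zfp936 (-2.95), Zfp980 (-1.56, SE 0.3, adjusted p = 0.0051) and Zfp979 (-1.56, SE 0.214, adjusted p = 0.00063). Zfp983 lost its call under quantile normalization (0.57, adjusted p = 0.11), and Zfp931 in 8 of the fits that left out 1 library, with adjusted p up to 0.097. Y-linked RNA was low in Daxx-null serum and retinoic acid and not in Daxx-null 2i, and its part in the 2i differences was not tested.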

How the results depend on the processing

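No called difference of a named gene changed direction under any alternative run (103 differences). Estimates of named genes that were not called were left out of this check. In 2i, however, the balance of higher and lower members turned. It went from 8 and 7 to 4 and 15 under quantile normalization and 6 and 14 with chromosome medians removed. The member median went from 0.03 to -0.23 and -0.17. Over all 18002 tested genes the counts went from 5671 and 2760 to 3722 and 4205 under quantile normalization. They were 3464 and 5094 with chromosome medians removed. Of 1060 values of the called differences of named genes under alternatives other than leaving out a library, 1004 kept their call and 56 lost it. Of 762 with 1 library left out 669 kept it and 93 lost it. In serum 27 members were higher in Daxx-null cells under quantile normalization and 27 in the authors' deposited table, where 2172 and 2220 of all genes were. In 2i the count of higher members was 4 under each of these, 3 with only the groups compared in the fit and 5 without wild-type replicate 3 and Daxx-null replicate 2, an alternative added after seeing the data. The count of lower members in 2i was 15, 16, 4 with only the groups compared and 14 with chromosome medians removed. For the Daxx effect in 2i minus that in serum, higher members were 3 under quantile normalization, 5 under median-ratio scaling, 3 in the authors' table and 4 with chromosome medians removed, and lower members 31, 31 in the table and 25 with chromosome medians removed. For retinoic acid minus serum, lower members were 21 with only the groups compared, where 1487 of all genes were lower. Why these counts moved was not tested.

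With each library left out in turn, members higher and lower in Daxx-null cells numbered 9 to 15 and 5 to 5 for serum, 6 to 11 and 5 to 10 for 2i and 0 to 0 and 6 to 8 for retinoic acid. In wild type they were 24 to 29 and 3 to 4 for 2i, and 15 to 19 and 18 to 19 for retinoic acid. For the Daxx effect minus that in serum they were 7 to 9 and 8 to 18 in 2i, and 0 to 0 and 7 to 12 in retinoic acid. The 9 in serum came without wild-type replicate 3. The 2i difference fell to 8 lower members without wild-type serum replicate 3 or wild-type 2i replicate 2, and to 9 without Daxx-null serum replicate 1 or wild-type 2i replicate 1. The retinoic acid difference fell to 7 without wild-type serum replicate 3, Daxx-null serum replicate 3 or wild-type retinoic acid replicate 2.

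Deviations of same-numbered wild-type and Daxx-null libraries correlated between -0.16 and 0.15, and those of differently numbered ones between -0.18 and 0.19. With 3 libraries per group this cannot exclude a shared day or batch. With the replicate block, higher and lower members numbered 16 and 5 for serum, 10 and 8 for 2i, 0 and 7 for retinoic acid, 27 and 3 for wild-type 2i, 19 and 18 for wild-type retinoic acid, and 9 and 16 (2i) and 0 and 14 (retinoic acid) for the differences.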
